A study of Mus musculus with 20 samples.

Results

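The miR-183 cluster is a group of 3 microRNA genes that lie close together on mouse chromosome 6 and are read in the same direction. Its hairpins, mmu-mir-183, mmu-mir-96 and mmu-mir-182, were followed by name, and all 3 of them were found among the 605 named mouse microRNA hairpins of the small RNA table. Mouse embryonic stem cells, the pluripotent cells that can be cultured from the early embryo, were grown in 10% FBS with leukemia inhibitory factor and sorted by flow cytometry. State 3 had low levels of the transcription factors Nanog and Sox2, State 2 combined low Nanog with high Sox2, State 1 had high levels of both, and the total population was left unsorted. Small RNA-seq covered 8 libraries, 2 in each group, and rRNA-depleted RNA-seq covered 12 libraries, 3 in each group. The authors merged the libraries of a group into a single value before deposit, so no spread between libraries can be given. The labels name neither the stem cell line nor any genetic change, and they do not say whether libraries came from separate cultures.

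MicroRNAs are short RNAs that guide Argonaute proteins to messenger RNAs, mainly through a seed at bases 2 to 8 from the 5′ end. A primary transcript is cut in the nucleus into hairpins, and each hairpin is then cut into a 5p and a 3p arm. The members of this cluster have closely related 5p arms, come from a common primary transcript, and are best known from sensory organs such as the retina and the inner ear and from epithelia. They are also abundant in mouse embryonic stem cells.

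The mature 5p sequences are shown because their seeds set which messenger RNAs each member can pair with. They come from RefSeq on GRCm38.p6, all on the minus strand, and the capitals mark the seed.
miR-183-5p: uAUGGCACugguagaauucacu
miR-96-5p: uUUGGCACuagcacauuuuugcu
miR-182-5p: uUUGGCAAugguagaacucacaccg
No 2 members had the same seed. Counting from 1 at the 5′ end and giving the first-named sequence's base first, the seeds of miR-183-5p and miR-96-5p differed at A2U, those of miR-96-5p and miR-182-5p at C8A, and those of miR-183-5p and miR-182-5p at both A2U and C8A. Over all aligned positions, seed included, the likeness ran differently. miR-183-5p and miR-182-5p had the same base at 18 of 22 positions, miR-183-5p and miR-96-5p at 13 of 22, and miR-96-5p and miR-182-5p at 12 of 23. Among 1679 mature mouse sequences in RefSeq no other one was identical to an arm of these hairpins. miR-1271-5p had the same seed as miR-96-5p, and its hairpin was not analysed here.

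The table counts hairpins, so the 5p and 3p arms are added together. The hairpins are shown with both arms in capitals, because a read from either arm enters the value of its member.
mir-183: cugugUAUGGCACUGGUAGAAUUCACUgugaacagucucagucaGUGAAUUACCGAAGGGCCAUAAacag
mir-96: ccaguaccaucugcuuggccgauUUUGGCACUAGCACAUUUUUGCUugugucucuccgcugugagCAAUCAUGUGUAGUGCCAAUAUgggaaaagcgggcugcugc
mir-182: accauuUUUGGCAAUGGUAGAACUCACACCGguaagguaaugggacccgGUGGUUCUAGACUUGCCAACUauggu
In GRCm38.p6 coordinates mir-183 lies at chr6:30169668-30169737, mir-96 at chr6:30169446-30169551 and mir-182 at chr6:30165918-30165992. The 3 hairpins span 3820 bp, with a gap of 116 bp between mir-183 and mir-96 and of 3453 bp between mir-96 and mir-182. All 3 lie inside the annotated long noncoding RNA gene Mirc35hg at chr6:30158640-30174125.

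All 3 hairpins had their lowest deposited value in State 3 and their highest in State 1, with State 2 and the total population between. The values were taken to be the authors' normalized signal, in which columns are not scaled to a common total. mir-183 had a value of 32194 in State 3, 58489 in State 2, 154336 in State 1 and 110402 in the total population. mir-182 had a value of 5651 in State 3, 14177 in State 2, 33600 in State 1 and 24424 in the total population. mir-96, the least abundant member, had a value of 510.1 in State 3, 999.5 in State 2, 2651 in State 1 and 2266 in the total population. The order of the groups was therefore the same for each of the 3. Adapter ligation favours some small RNA ends over others, so the levels of different hairpins compare only roughly.

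As a share of all hairpin signal the picture was different for the lower states. mir-183 made up 3.19% of the hairpin signal in State 3, 2.92% in State 2, 4.63% in State 1 and 4.37% in the total population. mir-182 made up 0.560% in State 3, 0.709% in State 2, 1.01% in State 1 and 0.967% in the total population. mir-96 made up 0.0506% in State 3, 0.04996% in State 2, 0.0795% in State 1 and 0.0897% in the total population. State 3 and State 2 both stayed below State 1 and the total population for each member, but State 3 was below State 2 for mir-182 and slightly above it for mir-183 and mir-96. mir-183 was the 5th most abundant hairpin in State 3 and State 2 and the 4th in State 1 and the total population. mir-182 stood at rank 17 in State 3, 12 in State 2, 9 in State 1 and 12 in the total population, and mir-96 at rank 74, 68, 48 and 48 in the same order of groups.

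**Figure D1:**
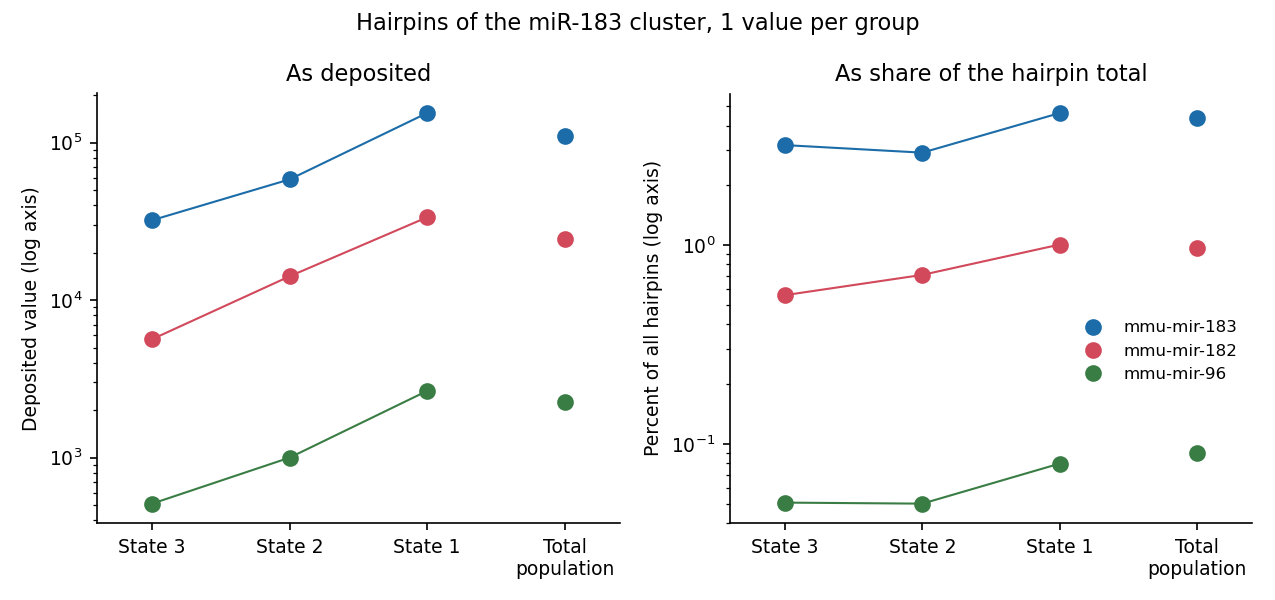
Values of mir-183, mir-182 and mir-96 in each group on log axes, as deposited (left) and as percent of all hairpins (right); each point is 1 group value with no error, and lines join the sorted states. On the left every member is lowest in State 3 (32194 for mir-183, against 154336 in State 1), while on the right mir-183 is at 3.19% in State 3, against 2.92% in State 2.

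The scales differ by the hairpin total, which was lowest in State 3. Hairpins summed to 1.01 M in State 3, 2.00 M in State 2, 3.33 M in State 1 and 2.53 M in the total population, while all other features summed to between 1.43 M and 1.79 M. Hairpins were 38.7% of the small RNA signal in State 3, 58.4% in State 2, 65.0% in State 1 and 60.9% in the total population. Of the 297 hairpins with a mean value of at least 10, the median log2 ratio as deposited was -1.02 for State 3 over State 1, -0.53 for State 2 over State 1 and -0.66 for State 3 over State 2. The part of this class-wide shift in the members' ratios was not tested. In these bulk samples fewer cells with a microRNA and less of it per cell cannot be told apart.

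Set against that median, all 3 members were well below most other hairpins in State 2 relative to State 1. The log2 ratio of State 2 over State 1 was -1.40 for mir-183, -1.41 for mir-96 and -1.24 for mir-182, and only 18, 17 and 23 of the 297 hairpins had a lower ratio than these members in that order. This rank does not change with the scale of a column. As percent of all hairpins the ratios were -0.66, -0.67 and -0.51. By the authors' deposited table, all 3 members were called lower in State 2 than in State 1, where 58 of 605 hairpins (9.59%) were called lower. Of the 73 hairpins called in either direction, 71 were among the 297 with a mean of at least 10. Shares of all 605 hairpins, here and below, therefore understate the share called among abundant hairpins. The authors deposited probabilities for patterns of equal and unequal groups, but no calls. Each call was made here, with an inferred pattern order. It means that the patterns that set the compared groups apart sum to a probability of at least 0.95. Its direction is that of the deposited values. Naming the authors' deposited table gives the source of these probabilities only. They come from the authors' EBSeq model, whose input and scaling are not given in the sources used here.

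Between State 3 and State 2 only mir-182 stood well below most other hairpins. The log2 ratio of State 3 over State 2 as deposited was -0.86 for mir-183, -0.97 for mir-96 and -1.33 for mir-182, beside the median of -0.66 for all hairpins. A lower ratio than that of mir-183 was found for 115 of the 297 hairpins, than that of mir-96 for 107 and than that of mir-182 for 47. By the authors' deposited table all 3 were called lower in State 3, where 91 of 605 hairpins (15%) were called lower. All 95 hairpins called in either direction had a mean of at least 10. The call of mir-96 was the narrowest, at a probability of 0.955. As percent of all hairpins the ratio of mir-183 turned to 0.13 and that of mir-96 to 0.017, while that of mir-182 remained negative at -0.34. A direction for State 3 over State 2 of mir-183 and mir-96 thus depends on the scale.

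**Figure D2:**
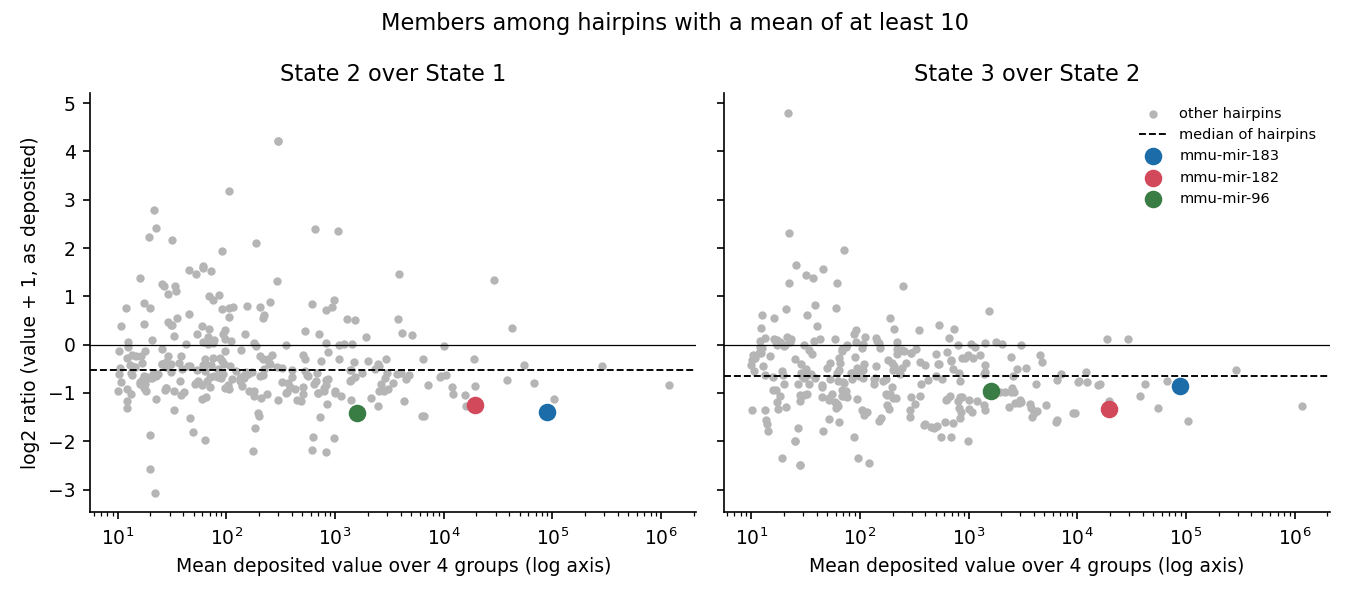
Each point is 1 of the 297 hairpins with a mean of at least 10, by mean deposited value on a log axis and by log2 ratio as deposited for State 2 over State 1 (left) and State 3 over State 2 (right); the dashed line is the median hairpin. The members lie far under the median on the left (-1.24 to -1.41, against -0.53), while on the right mir-183 is at -0.86 and mir-96 at -0.97, near the median of -0.66, and these 2 turn positive as percent of all hairpins.

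Over the whole distance between the sorted extremes, all 3 members were lower on every scale. The State 3 value as deposited was 0.209 of the State 1 value for mir-183, 0.192 for mir-96 and 0.168 for mir-182, which is a log2 ratio of State 3 over State 1 of -2.26, -2.38 and -2.57. As percent of all hairpins the log2 ratios were -0.54, -0.65 and -0.85. Of the 297 hairpins, 41 had a lower ratio than mir-183, 31 than mir-96 and 21 than mir-182. By the authors' deposited table all 3 members were called lower in State 3, where 136 of 605 hairpins (22.5%) were called lower. In either direction 153 of 605 were called, and 151 of these had a mean of at least 10. mir-182 had the largest drop of the 3 members and mir-183 the smallest on each scale, since the order within a column pair does not depend on scale.

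The cluster sum gives the same picture in a single value. It was 38355 in State 3, 73665 in State 2, 190587 in State 1 and 137092 in the total population, or 3.80%, 3.68%, 5.72% and 5.43% of the hairpin signal in that order of groups. The miR-290 cluster, a stem cell microRNA cluster that made up most of the hairpin signal, moves this share. Without its 9 hairpins, mir-290a to mir-295, the sum of the miR-183 cluster was 7.73% of the remaining signal in State 3, 9.39% in State 2, 17.0% in State 1 and 15.8% in the total population. State 3 was then below State 2 again. The log2 ratio of the sum for State 3 over State 1 ran from -2.31 as deposited to -0.59 as percent of all hairpins, and that for State 2 over State 1 from -1.37 to -0.63.

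**Figure D3:**
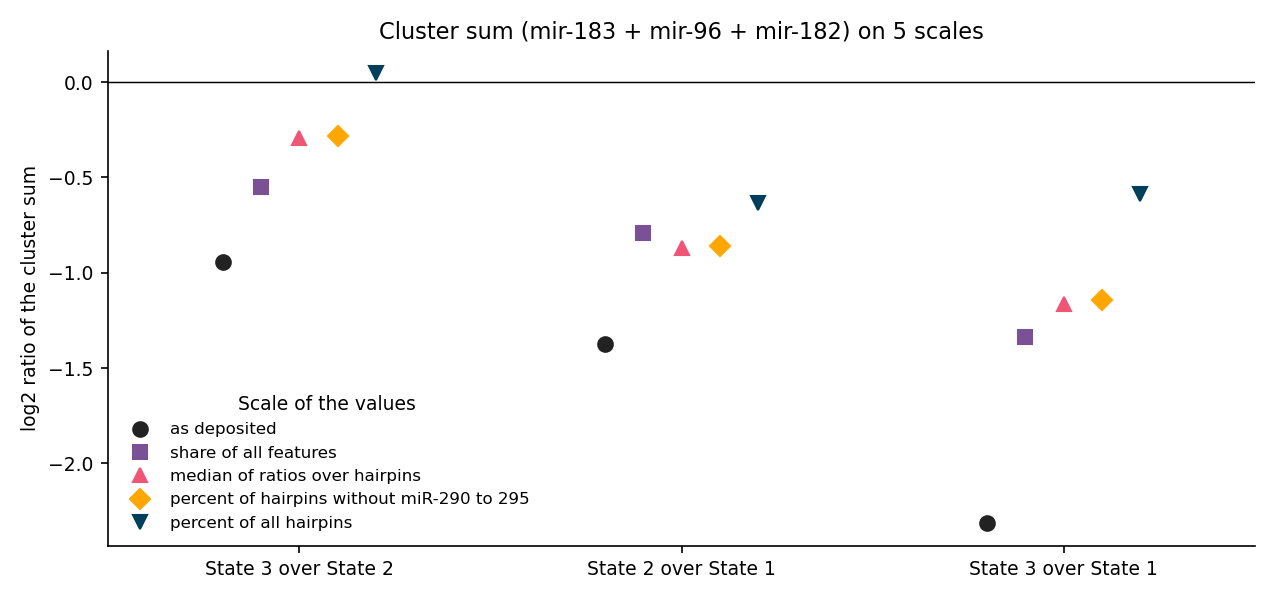
Log2 ratio of the cluster sum in the 3 comparisons between states on 5 scales of the values; each symbol is 1 scale and there are no error bars. State 2 over State 1 (-1.37 to -0.63) and State 3 over State 1 (-2.31 to -0.59) lie below 0 on all 5, while State 3 over State 2 runs from -0.94 as deposited to 0.046 as percent of all hairpins.

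Against the total population, State 3 and State 2 were lower and State 1 was not called different. The log2 ratio of State 3 over the total population as deposited was -1.78 for mir-183, -2.15 for mir-96 and -2.11 for mir-182. For State 2 over the total population it was -0.92, -1.18 and -0.78 in the same order of members. By the authors' deposited table all 3 members were called lower in each, where 20.8% of hairpins were called lower in State 3 and 6.78% in State 2. State 1 over the total population gave 0.48, 0.23 and 0.46, with probabilities in the authors' deposited table of 0.361, 0.00074 and 0.0011, and none was called, where 2.48% of hairpins were called in either direction. As percent of all hairpins mir-96 was 0.0795% in State 1, against 0.0897% in the total population, so its direction in this comparison turned with the scale. The comparisons with the total population share its libraries, and that population holds cells of all 3 states.

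The authors' model put the 3 members into the same pattern. In the authors' deposited table the pattern with State 3 and State 2 each apart and State 1 equal to the total population had the highest probability for every member, at 0.639 for mir-183, 0.955 for mir-96 and 0.999 for mir-182. For mir-183 the pattern with all 4 groups apart had the remaining 0.361. For mir-96 the pattern that sets State 3 equal to State 2 had 0.0447.

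The make-up of the cluster does not depend on the scale of a column, and it differed somewhat in State 3. mir-183 was 83.9% of the cluster sum in State 3, 79.4% in State 2, 81.0% in State 1 and 80.5% in the total population. mir-182 was 14.7% of the sum in State 3, 19.2% in State 2, 17.6% in State 1 and 17.8% in the total population. mir-96 was 1.33%, 1.36%, 1.39% and 1.65% in the same order of groups. The ratio of mir-183 to mir-182 was thus 5.70 in State 3, 4.13 in State 2, 4.59 in State 1 and 4.52 in the total population, so State 3 was the highest and State 2 the lowest. The ratio of mir-183 to mir-96 was 63.1 in State 3, 58.5 in State 2, 58.2 in State 1 and 48.7 in the total population. With merged libraries these ratios carry no replicate error. The reads behind the least abundant value, that of mir-96 in State 3, were estimated at 1307 to 1645.

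**Figure D4:**
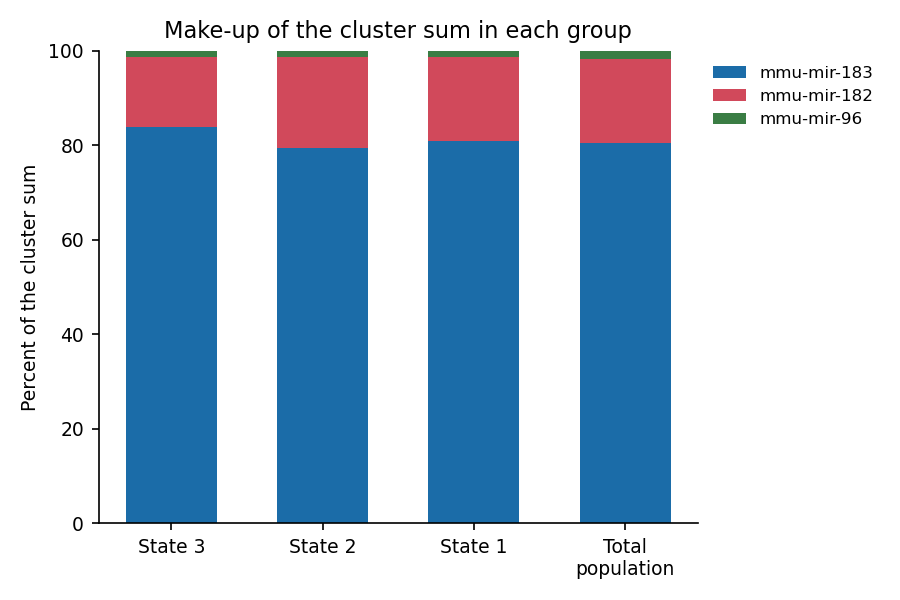
Stacked bars of the percent of the cluster sum held by mir-183, mir-182 and mir-96 in each group, from 0 to 100%, with 1 merged value per group and no error. mir-182 holds 14.7% of the sum in State 3, against 19.2% in State 2, 17.6% in State 1 and 17.8% in the total population.

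State 2 did not sit at the same place between the extremes for each member. On the log2 path from State 1 to State 3 as deposited, State 2 had covered 0.619 of the way for mir-183, 0.592 for mir-96 and 0.484 for mir-182. The median of the 151 hairpins called between State 3 and State 1 with a mean of at least 10 was 0.457. With hairpins scaled by their median of ratios, these fractions were 0.808, 0.738 and 0.523, beside a median of 0.508, and as percent of all hairpins they were 1.24, 1.03 and 0.600, beside 0.389. On each of these scales mir-183 was the farthest along at State 2, and mir-182 the nearest to the median hairpin. Median of ratios and percent of all hairpins add 1.15 and 1.72 to the log2 ratios of State 3 over State 1. For a called hairpin such as mir-199a-1, at -1.28 as deposited, the path is then near 0 or reversed. The medians of 0.508 and 0.389 are therefore only a rough background.

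As deposited, the sum of the miR-290 cluster had the same order of groups as the miR-183 sum. Its log2 ratio of State 3 over State 1 was -2.11, against -2.31 for the miR-183 sum. The miR-302 and miR-200 sums had other orders. The miR-290 cluster, led by mir-292a, had a summed signal of 50.8% of all hairpins in State 3, 60.8% in State 2, 66.5% in State 1 and 65.6% in the total population. The authors' deposited table called 9 of its 9 hairpins lower in State 3 than in State 1, beside 22.5% of all hairpins, and 3 of 9 lower in State 2 than in State 1, beside 9.59% of all hairpins, where all 3 members of the miR-183 cluster were called. The log2 ratio of State 2 over State 1 as percent of all hairpins was -0.13 for the miR-290 sum, against -0.63 for the miR-183 sum. The miR-302 cluster, which is known from later, primed pluripotent cells, ran the other way. It summed to 2922 in State 3, 2717 in State 2, 528.1 in State 1 and 1534 in the total population, with 3 of 5 hairpins called higher in State 3 than in State 1, where 2.81% of all hairpins were called higher. The miR-200 hairpins, which are typical of epithelial cells, summed to 3003 in State 3, 7765 in State 2, 5166 in State 1 and 5329 in the total population. The sum was thus highest in State 2, but none of the 5 was called between State 2 and State 1 or the total population. In these 2 comparisons 73 and 47 of 605 hairpins were called in either direction. Between State 3 and State 2, 2 of 5 were called lower in State 3, beside 15% of all hairpins. The miR-17-92 sum, led by mir-92a-1, was 203286 in State 3, 292700 in State 2, 398445 in State 1 and 283486 in the total population. It thus fell from State 1 to State 3 as deposited. As percent of all hairpins it rose instead, from 11.9% in State 1 to 14.6% in State 2 and 20.1% in State 3. The difference between clusters was not tested.

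The hairpins whose 4 group values ran most like those of the cluster sum were mir-181c, mir-295, mir-143, mir-191 and mir-290a. Of these, mir-295 and mir-290a belong to the miR-290 cluster. Likeness was the distance between log2 values centred over the 4 groups, with 161 other hairpins of mean at least 100 ranked. The distance was 0.164 for mir-181c, 0.168 for mir-295, 0.169 for mir-143, 0.224 for mir-191 and 0.290 for mir-290a, beside a median of 0.961 over the ranked hairpins. The members themselves lay at 0.0591 for mir-183, 0.248 for mir-96 and 0.282 for mir-182. mir-181c, mir-295, mir-143 and mir-191 were therefore nearer to the sum than mir-96 and mir-182 were. With Pearson correlation in place of distance, 1 of these 5, mir-295, was still among the nearest 5. The 4 points share depth and column scale, so the ranking is a description.

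The RNA-seq table showed whether the sort gave the intended states. Nanog had a value of 440.0 in State 3, 743.2 in State 2, 4145 in State 1 and 2783 in the total population, and Sox2 1306 in State 3, 3167 in State 2, 4155 in State 1 and 3954 in the total population. Nanog was lowest in State 3 and State 2, the states sorted as low for it, and Sox2 was lowest in State 3. Sox2 was also called lower in State 2, labelled high for it, than in State 1, by a log2 ratio of -0.39. Of 8 pluripotency markers 5 were called lower in State 3 than in State 1 by the authors' deposited table (Nanog, Sox2, Zfp42, Esrrb and Dppa4), against 9.01% of all genes, and Nanog and Sox2 among them were used for the sort. The other 3 were not called. Pou5f1 had 9826 in State 3, against 13810 in State 1, and Utf1 had 3665, against 4868. Lin28a ran the other way, with 8968 in State 3, against 6300 in State 1.

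The summed fibroblast and primitive endoderm markers were highest in State 3, where the members were lowest as deposited. The 7 fibroblast markers in the table summed to 1220 in State 3, 209.8 in State 2, 100.8 in State 1 and 223.1 in the total population, and 4 of 7 were called higher in State 3 than in State 1 by the authors' deposited table, against 11.4% of all genes. The called genes were Col1a1, Col1a2, Col3a1 and Pdgfrb. Col1a1, a chain of type I collagen, made up most of the State 3 sum, with 827.4 in State 3, against 23.0 in State 1. Thy1, Dcn and Lum were not called. Thy1 had 59.3 in State 3, against 42.2 in State 1, while Dcn was listed at 0 in State 1 and Lum at 0 in State 2. The 5 primitive endoderm markers summed to 497.9 in State 3, 213.7 in State 2, 58.4 in State 1 and 111.5 in the total population, with 4 of 5 called higher in State 3 than in State 1, again beside 11.4% of all genes. The 5 neural and sensory markers summed to 626.9 in State 3, 472.0 in State 2, 601.2 in State 1 and 618.8 in the total population, with no common order of the groups: Sox1 was highest in State 3, at 499.3, while Pax6 was lowest there, at 55.6, and Neurod1 was highest in State 2, at 166.3. mir-21a, a hairpin abundant in fibroblasts, had 40047 in State 3, 37008 in State 2, 14545 in State 1 and 24998 in the total population but was not called between State 3 and State 1, at a probability of 0.033 in the authors' deposited table. mir-143, also on the mesenchymal list, ran the other way, with 105.1 in State 3, against 493.1 in State 1. The other mesenchymal hairpins, mir-145a, mir-199a-1 and mir-214, were at or below 57.4 in every group. Of the 5 mesenchymal hairpins, 3 were called lower in State 3 than in State 1 (mir-143, mir-145a and mir-199a-1) and none higher. Of all hairpins 22.5% were called lower and 2.81% higher. The part of other cell types in the members' values was not tested.

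The genes reported as direct targets of a member, in mouse or human cells, were called in both directions. All 24 of the listed targets were in the RNA-seq table. In the authors' deposited table, 10 were called higher and 7 lower in State 3 than in State 1, where 11.4% and 9.01% of all 29692 genes were called higher and lower. These shares are over all genes, including those with a mean below 10. The median log2 ratio of the 24 was 0.24, beside -0.018 for the 15111 genes with a mean of at least 10. In State 2 over State 1, 7 were called higher and 7 lower, against 7.11% and 6.33% of all genes, with a median of 0.17. In State 3 over State 2, 5 were called higher and 3 lower, against 5.41% and 3.19% of all genes, with a median of -0.0073. The list was not tested as a group.

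Among targets in insulin and FoxO signalling, the directions were mixed. Irs1, the adaptor that carries the signal of the insulin receptor, had a value of 386.5 in State 3, 194.2 in State 2, 72.2 in State 1 and 124.6 in the total population and was called higher in State 3 than in State 1. Foxo1, a forkhead transcription factor held back by insulin signalling, had 1426 in State 3, 1488 in State 2, 1113 in State 1 and 1221 in the total population and was called higher in State 3 and in State 2 than in State 1. Its relative Foxo3 had 1534 in State 3, 1592 in State 2, 2108 in State 1 and 1705 in the total population and was called lower in both. Thus 2 forkhead factors with reported sites for the cluster were called in opposite directions.

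Signalling and adhesion genes included the target with the largest ratio. Rgs17, a regulator that shortens G protein signals, had 50.1 in State 3, 36.2 in State 2, 3.55 in State 1 and 10.3 in the total population, a log2 ratio of State 3 over State 1 of 3.49. Egr1, an immediate early transcription factor, had 723.6 in State 3, 465.9 in State 2, 148.8 in State 1 and 252.1 in the total population. Adcy6, an adenylyl cyclase that makes cyclic AMP, had 337.6 in State 3, 172.1 in State 2, 90.0 in State 1 and 126.5 in the total population. All 3 rose in State 3 and in State 2 relative to State 1 by the authors' deposited table. Itgb1, the beta 1 integrin chain that binds the extracellular matrix, had 11139 in State 3, 6445 in State 2, 3932 in State 1 and 5001 in the total population, and it too was called higher in both states. Itgb1 is also high in fibroblasts, whose summed markers were highest in State 3, mostly through Col1a1. The part of fibroblasts in the Itgb1 values was not tested.

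A smaller set of targets was called higher with modest ratios. Cyld, a deubiquitinase of the NF-kB pathway, had 595.9 in State 3, 351.9 in State 2, 292.8 in State 1 and 340.1 in the total population. Ryk, a Wnt receptor, had 1225 in State 3, 923.6 in State 2, 802.7 in State 1 and 866.4 in the total population. Smad4, the common partner of the TGF-beta Smads, had 1221 in State 3, 1059 in State 2, 1056 in State 1 and 1041 in the total population. These 3 were called higher in State 3 than in State 2 and State 1 and were not called between State 2 and State 1. Casp2, an apoptotic caspase, had 613.3 in State 3, 586.8 in State 2, 506.3 in State 1 and 574.3 in the total population and was called higher in both lower states than in State 1.

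The 7 targets called lower in State 3 than in State 1 ran in the same direction as the members. Klf4, a pluripotency factor, had 282.1 in State 3, 636.6 in State 2, 2425 in State 1 and 2166 in the total population, a log2 ratio of State 3 over State 1 of -3.10. Sox2 was also in this set, but it was used for the sort, so its values describe the gates. Mitf, a transcription factor of pigment cells, had 41.97 in State 3, 60.5 in State 2, 114.2 in State 1 and 95.7 in the total population. Mtss1, which bends membranes at actin-rich edges, had 860.7 in State 3, 1117 in State 2, 1876 in State 1 and 1634 in the total population. Brca1, needed for DNA repair by homologous recombination, had 1568 in State 3, 1805 in State 2, 2463 in State 1 and 2310 in the total population. Odf2, a protein of centriole appendages, had 2186 in State 3, 2812 in State 2, 3382 in State 1 and 2939 in the total population. All of these, and Foxo3, were also called lower in State 2 than in State 1 by the authors' deposited table.

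The 7 remaining targets were Clock, Bmi1, Ezr, Pdcd4, Celsr2, Myrip and Aqp5, and none was called between any of the states. Pdcd4, an inhibitor of translation, had 332.0 in State 3, 338.8 in State 2, 352.5 in State 1 and 322.8 in the total population. Clock, a circadian transcription factor, had 396.3 in State 3, 392.2 in State 2, 492.3 in State 1 and 499.0 in the total population, at a probability of 0.904 for State 3 over State 1 in the authors' deposited table.

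**Figure D5:**
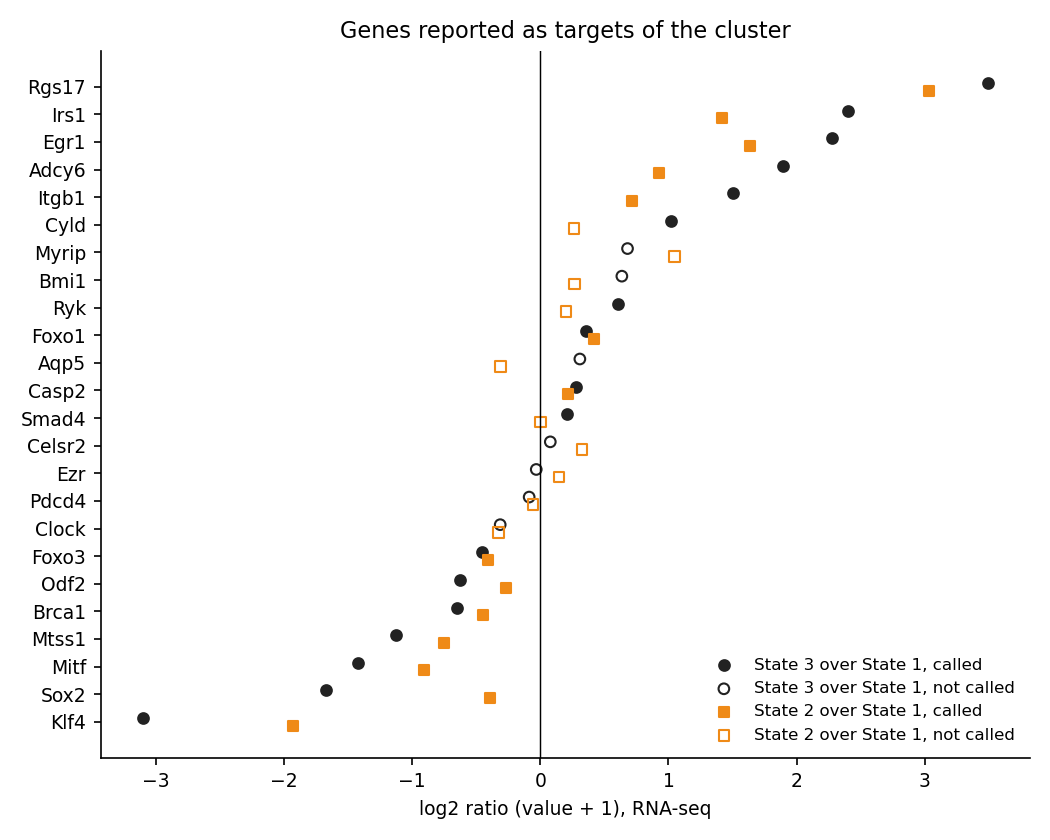
Log2 ratio in RNA-seq of the 24 reported target genes for State 3 over State 1 (circles) and State 2 over State 1 (squares), filled where called by the authors' deposited table; there are no error bars. The genes run from Klf4 at -3.10 to Rgs17 at 3.49 for State 3 over State 1, with 10 called higher and 7 called lower.

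Of the reported regulators of the cluster, Zeb1 and Tcf7l2 were called between states. Zeb1, a repressor that binds E-boxes and is known for silencing epithelial genes, had a value of 149.8 in State 3, 133.7 in State 2, 458.1 in State 1 and 340.7 in the total population. It was called lower in State 3 and in State 2 than in State 1 by the authors' deposited table, and so ran in the same direction as the cluster. Tcf7l2, a DNA-binding partner of beta-catenin, had 864.0 in State 3, 565.2 in State 2, 532.6 in State 1 and 526.3 in the total population and was called higher in State 3 than in each of the others. Ctnnb1, which encodes beta-catenin, had 9729 in State 3, 9678 in State 2, 10269 in State 1 and 10016 in the total population and was not called.

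The window around the start of the host transcript Mirc35hg is shown because all 3 hairpins lie within this gene. It holds 250 bases before and 50 after the annotated start, at chr6:30174076-30174375 on the minus strand of GRCm38.p6, from RefSeq, and the capitals mark matches to the E-box CACCTG and the GC box GGGCGG on either strand.
Mirc35hg: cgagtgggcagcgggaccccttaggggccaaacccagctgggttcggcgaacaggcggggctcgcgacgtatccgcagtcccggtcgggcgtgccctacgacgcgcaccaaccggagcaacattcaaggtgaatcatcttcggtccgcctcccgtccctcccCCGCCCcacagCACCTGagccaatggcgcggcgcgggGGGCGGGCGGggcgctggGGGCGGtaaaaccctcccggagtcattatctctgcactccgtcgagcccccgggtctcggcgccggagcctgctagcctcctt
The GC content of the window was 70.3%, beside a median of 52.7% over 32851 RefSeq promoter windows of the same length, and it held 35 CpG pairs, beside a median of 7. CACCTG was found 1 time and occurs in 20.2% of all windows. GGGCGG was found 4 times, 2 of them overlapping, and occurs in 35.7% of all windows. The Myc E-box CACGTG, held by 7.15% of all windows, was not found on either strand. Nor were the TCF/LEF letters CTTTGA, held by 16.0%, or the Sox letters CATTGT, held by 12.6%. The octamer ATGCAAAT, held by 1.74%, and the Esrrb letters TCAAGGTCA, held by 0.423%, were not found either. The motifs were chosen after the values were seen, and a match is only a match of letters. The RNA-seq level of Mirc35hg itself was not analysed here.

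Of the 6 nearest protein-coding genes, 3 on each side, 1 was called between any of the states. Between states 3.19% to 9.01% of all genes were called lower and 5.41% to 11.4% higher. With only 6 genes, none called lower and 1 called higher is near this background. Nrf1, a regulator of mitochondrial genes 12.5 kb away, had 1099 in State 3, 1142 in State 2, 1154 in State 1 and 1175 in the total population and was not called in any comparison. Ube2h, a ubiquitin-conjugating enzyme gene 41.6 kb away on the other side, had 861.0 in State 3, 551.9 in State 2, 484.3 in State 1 and 497.6 in the total population. It was called higher in State 3 than in State 1 at a probability of 0.957 in the authors' deposited table, opposite to the hairpins. Strip2, Ahcyl2, Zc3hc1 and Klhdc10 were not called in any of the 6 comparisons, with log2 ratios of State 3 over State 1 of 0.05, 0.07, -0.34 and 0.03. Rncr4, a retinal noncoding RNA gene known from the same region and added after its values were seen, had 2.94 in State 3, 2.29 in State 2, 3.23 in State 1 and 3.08 in the total population.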

How the data were processed

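Per the labels' protocols, sorted cells gave total RNA for rRNA-depleted, strand-marked RNA-seq and for small RNA-seq by adapter ligation. STAR 2.4.1d, RSEM 1.2.30, mm10 and GRCm38 appear in the submitters' processing notes without a role. Per the file headers, the deposited values are a normalized signal, 1 per feature and group; the scaling is not stated. The deposited tables also hold a score for each of 15 patterns, the EBSeq posterior probability that certain groups are equal and others apart. The pattern order was inferred: groups set equal lay closer than groups set apart in 94.4% of 1453 genes and 93.8% of 161 small RNA features, against 90.8% and 78.3% with State 1 and the total population exchanged.

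Computed here, with Python 3.11.15, pandas 2.3.3 and numpy 2.4.6, were summed pattern probabilities (called at 0.95), log2 ratios with a pseudocount of 1, shares of hairpins, and ranks among hairpins with a mean of at least 10. The summing was run on simulated data built with the same pattern order. That checks the arithmetic only, and neither the inferred order nor the calls. No values per library were used, so the planned edgeR fits, the replicate block and the fits without a replicate were not run and no p-value is given. Small RNA depth, estimated from the commonest low values, was 6.69 M to 8.42 M reads in State 3, 6.85 M to 9.26 M in State 2, 9.32 M to 10.9 M in State 1 and 5.61 M to 6.19 M in the total population. Hairpin identifiers without a name (156 of 761, at most 0.0611% of hairpin signal) were left out.

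The members, the gene lists and the rule for named genes were chosen with earlier results of these data known. That rule named the members, all called targets and regulators, all neighbouring genes and the 5 nearest hairpins.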

Additional observations from a re-analysis of the deposited data

How the results depend on the processing

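No paired analysis was possible because the deposited tables hold 1 merged value per group, and leaving out each replicate in turn was not run for the same reason. The direction of the cluster sum held on every scale tried in all comparisons except State 3 over State 2. Its log2 ratio for State 3 over State 2 was 0.046 as percent of all hairpins, -0.55 as share of all features, -0.29 by median of ratios over hairpins and -0.28 as percent of hairpins without the miR-290 cluster. In that order of scales it was -0.63, -0.79, -0.87 and -0.86 for State 2 over State 1, and -0.59, -1.34, -1.17 and -1.14 for State 3 over State 1. Against the total population it was -0.51, -1.17, -0.95 and -1.03 for State 3, -0.56, -0.62, -0.66 and -0.75 for State 2, and 0.075, 0.17, 0.21 and 0.11 for State 1. As percent of all hairpins the log2 ratio of State 3 over State 2 reversed for mir-183 (0.13) and mir-96 (0.017), because the hairpin total itself differs between the columns. The calls themselves could not be recomputed on another scale. The call of mir-96 between State 3 and State 2 was lost at a probability of 0.99, and no other call of a member changed at 0.90, at 0.99 or with State 1 and the total population exchanged in the pattern order. That exchange gave 47 hairpins called for State 2 over State 1, against 73 as reported, and 73 for State 2 over the total population, against 47. Pearson correlation shared 1 of the 5 nearest hairpins. Intervals from the estimated reads cover counting error only, such as -1.07 to -0.869 for mir-96 in State 3 over State 2.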
